A study of Mus musculus with 202 samples.

Results

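Hnf4a, Pdx1, Foxa1, Foxa2, Gata6, Onecut2, Sox9 and Hes1, 8 transcription factors of the pancreatic epithelial lineage, were followed from cell to cell in a cultured mouse line of pancreatic ductal adenocarcinoma. They were taken by symbol, as 8 of the 28987 rows of the expression table, and all 8 were present. The line came from a liver metastasis in mice of the KPC strain, a genetically engineered model of pancreatic cancer, and was grown in DMEM with 10% serum at passages 4 to 6. The sort used an antibody to E-cadherin, the product of Cdh1 that holds epithelial cells together, and split the culture into negative (Ecad-) and positive (Ecad+) cells; the labels give no other treatment. After 5 near-identical pairs of libraries (1 Ecad- and 4 Ecad+) were averaged, 97 Ecad- and 100 Ecad+ cells remained. No label names separate cultures or sorts of this 1 line, and so each group was treated as 1 sample, no test between the groups was made, and spreads are between cells.

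These factors act in layers during formation of the pancreas. Foxa1 and Foxa2 are forkhead proteins that open chromatin in the gut endoderm, Gata6 and Pdx1 set up the pancreatic bud, and Hnf4a, Onecut2 and Sox9 act in progenitors and epithelial cells. Hes1 is a repressor switched on by Notch signalling that holds progenitors back from endocrine differentiation. In human pancreatic cancer, GATA6 and HNF4A are known as markers of the classical, epithelial tumour class.

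Positions of 6 of the factors follow, on mm10 with GENCODE M21. Hnf4a spans chr2:163506808-163572910 on the plus strand. Foxa2 lies on the same chromosome at chr2:148042877-148046969, on the minus strand. Pdx1 is at chr5:147269959-147275848 and Hes1 at chr16:30064384-30067796, both on the plus strand. Sox9 is at chr11:112782224-112787760 on the plus strand and Foxa1 at chr12:57540628-57546916 on the minus strand.

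RefSeq windows of 250 bases before a transcription start were held for 4 of the 8 factors, namely Hnf4a, Pdx1, Foxa1 and Foxa2, 7 windows in all. The windows of Hnf4a and Pdx1 are shown because these were the only factors lower in Ecad- cells in each of 3 sets of libraries, and because their levels moved together across cells of both groups. Hnf4a has 2 windows, one for each of its known alternative promoters: the distal one, called P2, was read from chr2:163506607-163506856 and the proximal one, called P1, from chr2:163546905-163547154. The Pdx1 window is chr5:147269847-147270096. All 3 are on the plus strand of GRCm38.p6 and are given 5′ to 3′, with matches to any of 6 short motifs in capitals. RefSeq starts differ from the GENCODE gene starts above, so the P2 and Pdx1 windows reach past those.
Hnf4a distal promoter: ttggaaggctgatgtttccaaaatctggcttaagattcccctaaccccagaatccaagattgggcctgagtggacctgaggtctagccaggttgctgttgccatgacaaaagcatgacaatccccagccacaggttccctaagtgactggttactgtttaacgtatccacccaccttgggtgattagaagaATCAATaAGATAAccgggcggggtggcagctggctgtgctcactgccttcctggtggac
Hnf4a proximal promoter: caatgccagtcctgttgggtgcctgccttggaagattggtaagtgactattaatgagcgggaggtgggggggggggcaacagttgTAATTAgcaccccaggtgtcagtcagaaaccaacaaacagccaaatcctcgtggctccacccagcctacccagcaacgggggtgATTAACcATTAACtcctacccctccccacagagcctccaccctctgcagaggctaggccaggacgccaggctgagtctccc
Pdx1 promoter: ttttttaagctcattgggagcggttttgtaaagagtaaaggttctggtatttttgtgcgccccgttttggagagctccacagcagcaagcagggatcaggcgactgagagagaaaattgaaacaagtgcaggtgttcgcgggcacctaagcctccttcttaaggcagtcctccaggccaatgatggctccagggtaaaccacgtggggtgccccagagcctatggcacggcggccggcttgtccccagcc

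Both strands were searched, and the share of all 32851 promoter windows of the same length that hold each motif is given beside it. The distal Hnf4a window held ATTGAT, a ONECUT motif found in 6.72% of windows, on the minus strand 59 bases before the start. On the plus strand, 52 bases before the start, it held the letters AGATAA, bound by zinc finger factors of the Gata family and found in 9.99% of windows. The proximal window held GTTAAT, a homeodomain motif found in 6.43% of windows, at 81 and at 74 bases before the start, both on the minus strand. It further held TAATTA, a homeodomain core of the kind PDX1 binds, found in 4.84% of windows, 165 bases before the start. Neither window held TGTTTAC, a FOXA motif found in 3.17% of windows, or AAAGTCC, part of an HNF4 site, found in 3.58%. The Pdx1 window matched none of the 6 motifs. No 2 matches overlapped. These matches describe letters in the windows and say nothing of binding, and the table does not tell which Hnf4a promoter was used.

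Levels are the arithmetic mean over cells of TPM, a share of a library's transcripts that is scaled for transcript length and so allows genes to be compared. In Ecad- cells, Hes1 came highest at 55.8 TPM and Foxa2 next at 21.4 TPM, followed by Onecut2 (5.63), Sox9 (5.34), Hnf4a (4.92), Gata6 (4.02), Foxa1 (3.13) and Pdx1 (1.58). In Ecad+ cells, Hes1 at 71.4 TPM and Foxa2 at 22.1 TPM again led, followed by Hnf4a (11.2), Onecut2 (8.34), Gata6 (3.65), Pdx1 (3.37), Sox9 (2.87) and Foxa1 (2.43). In both groups the interquartile range of each factor overlapped with that of its neighbour in the order, so neighbours did not differ beyond the spread between cells. Hnf4a stood below Onecut2 and Sox9 in Ecad- cells and above both in Ecad+ cells.

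**Figure D1:**
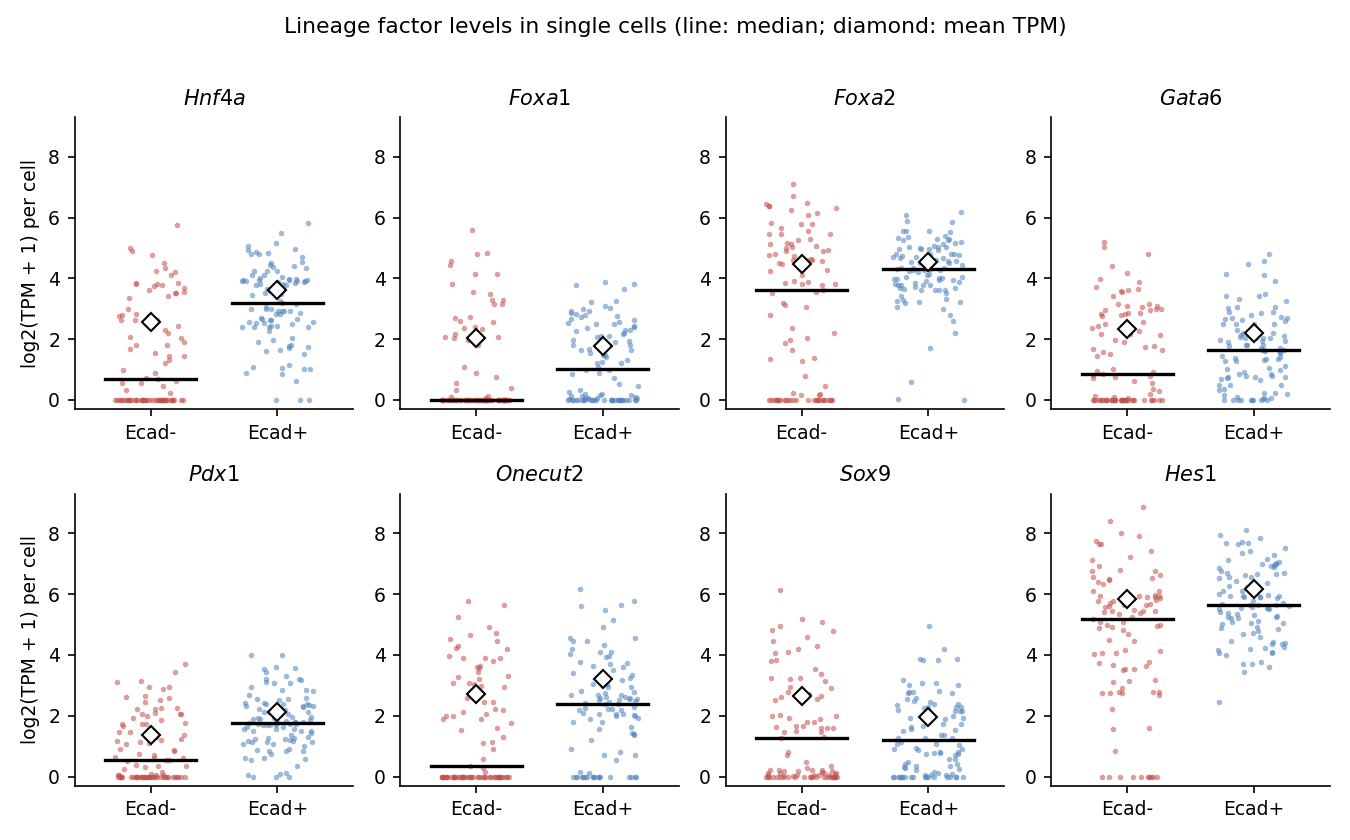
TPM of each factor in every Ecad- (left) and Ecad+ (right) cell, on an axis of log2(TPM + 1); each point is a cell. Zero values are frequent in Ecad- cells for every factor, from 10 cells for Hes1 to 60 cells for Foxa1, while the upper ends of the groups overlap.

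Each of the 8 factors was above 0 TPM in a smaller share of Ecad- than of Ecad+ cells. The difference, Ecad- minus Ecad+, was smallest for Sox9 (-5.71 percentage points) and largest for Hnf4a (-40.3 points). A lower share was also the rule among genes at large, since 89.7% of the 10709 genes averaging 1 TPM or more had one. The size of the gap was less common: it reached 20 points or more for 6 of 8 factors, all but Sox9 and Hes1, against 30.3% of these genes. The median gap of the 8 factors was -28.8 points, beside -12.2 points over the same genes.

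Libraries of the 2 groups differed as a whole, and this moves with the shares. Ecad- cells had a median of 8694 genes above 0 TPM, against 10338 in Ecad+ cells. The median part of TPM from mitochondrial genes was 8.78% in Ecad- cells, against 30.0% in Ecad+ cells. In 40 of 97 Ecad- cells, against 1 of 100 Ecad+ cells, under 1% of TPM came from mitochondrial genes, and these are called low-share cells below. Without them, a gap of at least 20 points was found for 4 of 8 factors (Hnf4a, Pdx1, Onecut2 and Foxa1), against 28% of genes. The median gap was then -19.9 points for the factors and -12.0 points for the genes. The order of the factors also changed: the gap was then largest for Foxa1 (-27.9 points), followed by Pdx1 (-21.5), Onecut2 (-21.4) and Hnf4a (-20.8), and smallest for Hes1 (-8.77). The part of library quality in the shares was not tested. TPM keeps no read depth, so a value of 0 means only that the gene is listed at 0, and fewer cells with a transcript cannot be told apart from less RNA per cell.

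**Figure D2:**
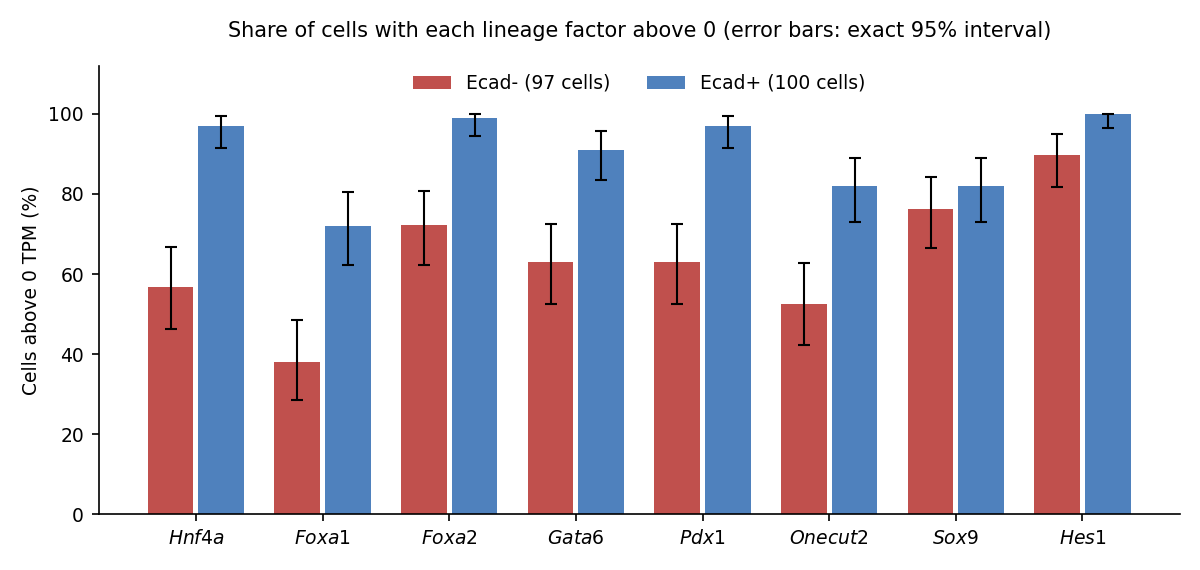
Share of cells above 0 TPM for each factor in Ecad- and Ecad+ cells, in percent, with exact 95% intervals that cover counting error only. All 8 shares are lower in Ecad- cells, from 38.1% for Foxa1 to 89.7% for Hes1, against 72.0% to 100.0% in Ecad+ cells.

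Hnf4a, a nuclear receptor that drives epithelial and digestive gene programmes, had the lowest log2 ratio of the 8 and, over all cells, the largest gap in share. In set 1 Onecut2 (-0.66) and Hes1 (-0.65) had ratios as low as that of Hnf4a (-0.64). Its TPM had a lowest value of 0, a median of 0.621 and a highest value of 53.1 in Ecad- cells, against 0, 8.01 and 56.1 in Ecad+ cells. The groups overlapped over nearly the whole range, with most Ecad- cells at its low end. Detection of Hnf4a, meaning a value above 0, was 56.7% or 55 of 97 Ecad- cells (46.3 to 66.7%, exact 95% interval), against 97 of 100 Ecad+ cells (91.5 to 99.4%). The mean was 4.92 ± 8.50 TPM in Ecad- cells, against 11.2 ± 9.99 TPM in Ecad+ cells (SD over 97 and 100 cells). The log2 ratio of these means, each plus 1 TPM, was -1.05.

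By library set, the name suffix that splits the libraries into 3 sets, the Hnf4a ratio was -0.64, -0.89 and -1.64. The share of Ecad- cells above 0 was lowest in set 3, with 12 of 33 libraries, beside 23 of 33 in set 1 and 21 of 32 in set 2. Without set 3 the ratio was -0.77, and without the low-share cells it was -0.63. Among the 40 low-share Ecad- cells, 11 had Hnf4a above 0 and the mean was 1.98 TPM, beside 44 of 57 and 6.98 TPM in the other Ecad- cells.

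Pdx1, the homeodomain factor required for pancreas formation and later for beta cell identity, gave the same picture at a lower level. Its TPM ran between 0 and 12.0 with a median of 0.451 in Ecad- cells, against 0 to 15.2 with a median of 2.42 in Ecad+ cells. The ranges overlapped throughout. Values above 0 came from 61 of 97 Ecad- cells (62.9%, 52.5 to 72.5%), against 97 of 100 Ecad+ cells. The mean was 1.58 ± 2.38 TPM in Ecad- cells, against 3.37 ± 3.10 TPM in Ecad+ cells, giving -0.76 as log2 ratio. By set the ratio was -0.12, -0.73 and -1.44, and it was -0.47 without the low-share cells. Set 1 was therefore near even in level, although 26 of 33 Ecad- and 27 of 28 Ecad+ libraries there were above 0.

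Hnf4a and Pdx1 were the 2 factors below 0 in each of the 3 sets, as were 15.2% of genes averaging 1 TPM or more. They also differed within the cells that had them. In cells above 0, Hnf4a averaged 8.67 TPM in Ecad- cells, against 11.6 TPM in Ecad+ cells (log2 ratio -0.38). Pdx1 averaged 2.51 TPM in Ecad- cells, against 3.48 TPM in Ecad+ cells above 0 (log2 ratio -0.35). Hes1 (-0.19) was the other factor with a negative ratio in such cells. A higher Ecad- mean in cells above 0, seen in the remaining 5 factors, was found for 85.2% of genes. By set, the Pdx1 mean above 0 went the other way in set 1, at 3.10 TPM in Ecad- and 2.84 TPM in Ecad+ libraries. It was 1.85 against 2.95 TPM in set 2 and 2.54 against 4.56 TPM in set 3.

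The forkhead factor Foxa2 was nearly even in mean level, at 21.4 ± 27.7 TPM in Ecad- cells, against 22.1 ± 14.0 TPM in Ecad+ cells (log2 ratio -0.05). Behind this even mean the cells were spread differently. Foxa2 ran between 0 and 135 TPM with a median of 11.2 in Ecad- cells, against 0 to 72.4 TPM with a median of 18.9 in Ecad+ cells. Foxa2 transcripts were found in 70 of 97 Ecad- cells (72.2%), against 99 of 100 Ecad+ cells. In cells above 0 it averaged 29.6 TPM in Ecad- cells, against 22.4 TPM in Ecad+ cells (log2 ratio 0.39). The Ecad- cells were thus more spread, with 27 cells at 0 against 1 Ecad+ cell, and with the highest values too. In set 3, 16 of 33 Ecad- libraries were above 0, and the ratios of the 3 sets were 0.12, 0.19 and -0.39.

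Foxa1, its close paralogue, was the least often detected of the 8. Its TPM had a median of 0 and a highest value of 47.3 in Ecad- cells, against 1.04 and 13.7 in Ecad+ cells. Detection reached 37 of 97 Ecad- cells (38.1%, 28.5 to 48.6%), against 72 of 100 Ecad+ cells (62.1 to 80.5%). The mean was 3.13 ± 7.32 TPM in Ecad- cells, against 2.43 ± 3.18 TPM in Ecad+ cells (log2 ratio 0.27). The ratio was -0.25, 0.24 and 0.66 in the 3 sets, and -0.03 without the low-share cells. A few Ecad- cells carried most of it: the 10 highest cells held 69.7% of the Foxa1 sum in Ecad- cells and 39.5% in Ecad+ cells. Such concentration was general, since 93.3% of genes had a larger part of their sum in the 10 highest Ecad- cells, and the median part over genes was 47.3% in Ecad- and 33.3% in Ecad+ cells. The 2 Foxa genes are similar in sequence, and how reads shared between them were split is not known.

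Gata6, a zinc finger factor of endoderm and a known classical marker in human tumours, had a similar mean in both groups but fewer positive Ecad- cells. Its TPM ran between 0 and 35.8 with a median of 0.818 in Ecad- cells, against 0 to 26.9 with a median of 2.13 in Ecad+ cells. It was above 0 in 61 of 97 Ecad- cells (62.9%), against 91 of 100 Ecad+ cells (83.6 to 95.8%). The mean was 4.02 ± 6.60 TPM in Ecad- cells, against 3.65 ± 4.89 TPM in Ecad+ cells (log2 ratio 0.11). The sets differed in sign, with -0.62, 0.77 and 0.04. The median and the mean of Gata6 thus differed in which group was higher.

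Onecut2, a cut-homeodomain factor related to the liver and pancreas factor Onecut1, was lower in mean in Ecad- cells overall but not in each set. Its TPM ran between 0 and 53.2 with a median of 0.258 in Ecad- cells, against 0 to 71.4 with a median of 4.28 in Ecad+ cells. Detection was in 51 of 97 Ecad- cells (52.6%, 42.2 to 62.8%), against 82 of 100 Ecad+ cells (73.1 to 89.0%). The mean was 5.63 ± 10.0 TPM in Ecad- cells, against 8.34 ± 12.5 TPM in Ecad+ cells. The log2 ratio was -0.49, and it was -0.66, 0.08 and -0.97 in the 3 sets. In cells above 0 the means were close, at 10.7 TPM in Ecad- cells, against 10.2 TPM in Ecad+ cells (log2 ratio 0.07).

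Sox9, which marks ductal and progenitor cells of the pancreas, differed from the others in having nearly as many positive Ecad- cells and a higher mean there. Its TPM ran between 0 and 70.2 with a median of 1.42 in Ecad- cells, against 0 to 29.7 with a median of 1.31 in Ecad+ cells. It was above 0 in 74 of 97 Ecad- cells (76.3%, 66.6 to 84.3%), against 82 of 100 Ecad+ cells. The mean was 5.34 ± 10.3 TPM in Ecad- cells, against 2.87 ± 4.37 TPM in Ecad+ cells (log2 ratio 0.71). Sox9 was the only one of the 8 above 0 in each set (0.35, 0.59 and 0.98), as 41.1% of genes were.

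The higher Sox9 level sat mainly in the low-share cells. These 40 Ecad- cells averaged 8.37 TPM with 33 above 0, beside 3.21 TPM and 41 of 57 above 0 in the other Ecad- cells. Without low-share cells the log2 ratio was 0.11, beside an all-gene median of 0.12, and the share above 0 was 71.9% of 57 Ecad- cells against 81.8% of 99 Ecad+ cells. Sox9 at 5 TPM or more was found in 29 Ecad- and 17 Ecad+ cells, whereas 6 of the 8 factors, all but Sox9 and Gata6, were at that level in a smaller share of Ecad- cells. Over genes averaging 1 TPM or more this held for 68.6%.

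Hes1 was detected in nearly every cell and at the highest level of the 8. Its TPM ran between 0 and 461 with a median of 35.2 in Ecad- cells, against 4.43 to 277 with a median of 49.5 in Ecad+ cells. It was above 0 in 87 of 97 Ecad- cells (89.7%, 81.9 to 94.9%), against 100 of 100 Ecad+ cells (96.4 to 100.0%). The mean was 55.8 ± 74.7 TPM in Ecad- cells, against 71.4 ± 58.9 TPM in Ecad+ cells (log2 ratio -0.35). The 3 sets gave -0.65, 0.27 and -0.71, so set 2 went the other way. There the Ecad+ mean was 45.8 TPM, beside 81.7 and 96.5 TPM in the Ecad+ libraries of sets 1 and 3, while the Ecad- means of the sets lay between 51.7 and 58.6 TPM.

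**Figure D3:**
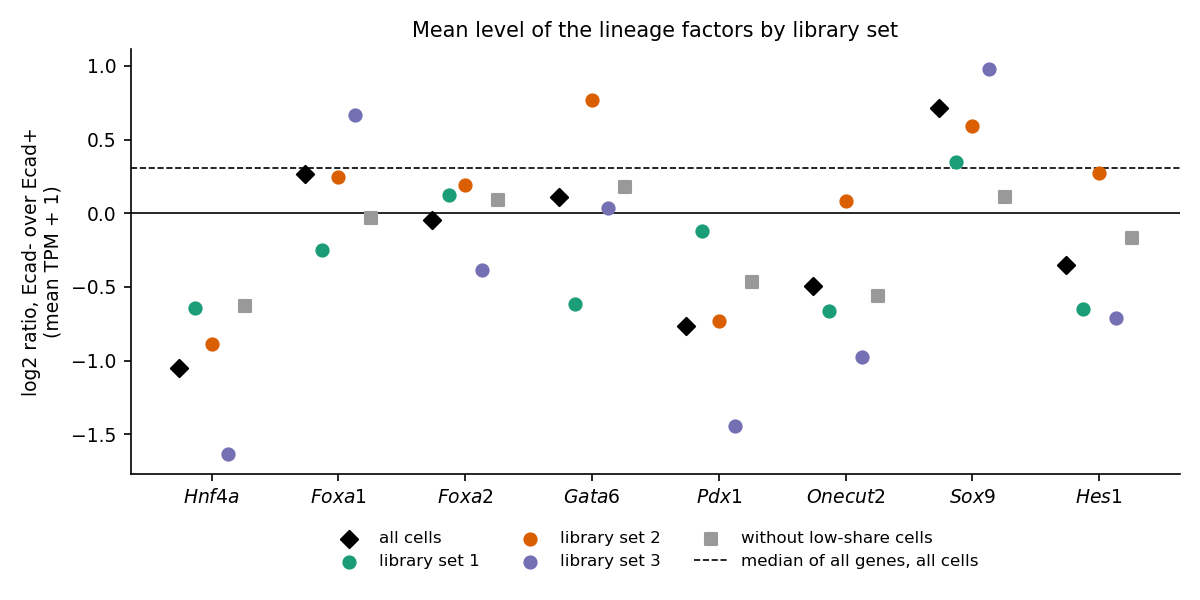
Log2 ratio of mean TPM (each plus 1), Ecad- over Ecad+, for each factor, over all cells, in each of the 3 library sets and without low-share cells. Hnf4a and Pdx1 are below 0 in each set (-0.64 to -1.64 for Hnf4a), Sox9 is above 0 in each, and the other 5 change sign between sets.

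In mean level 5 of the 8 factors were lower in Ecad- cells, beside 33.1% of the genes averaging 1 TPM or more, and 1 of them (Hnf4a) had a log2 ratio of -1 or below, beside 3.87%. At the higher floor of 5 TPM, also with values above 0 in at least 10% of cells, 7222 genes and 4 factors remained (Hnf4a, Foxa2, Onecut2 and Hes1). All 4 were lower in Ecad- cells, beside 31.2% of those genes, and Hnf4a was at -1 or below, beside 4.14%. None of the 4 was at 1 or above, beside 14.2%. The floor is on the mean over all cells of both groups, and a gene high in only 1 group can pass it. The median log2 ratio was -0.42 for the 4 factors and 0.31 for the 7222 genes. At the floor of 1 TPM it was -0.20 for the 8 factors and 0.27 for the 10709 genes.

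Because TPM is relative, a positive all-gene median shifts every ratio. Relative to the 0.31 of the 7222 genes, Hnf4a was at -1.35 and Pdx1 at -1.07, Onecut2 at -0.80, Hes1 at -0.66, Foxa2 at -0.36 and Sox9 at 0.40. Pdx1, Sox9, Foxa1 and Gata6 did not pass the 5 TPM floor of those genes. Foxa1, at -0.04, and Gata6, at -0.20, changed sign, having been above 0 before this centring. When TPM was rescaled without mitochondrial and ribosomal protein genes, the all-gene median was 0.002. Foxa1 was then at -0.03, Gata6 at -0.06 and Sox9 at 0.42.

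The factors were also counted within each cell. Ecad- cells held a median of 5 of the 8 above 0 TPM (quartiles 4 and 7, range 1 to 8), and Ecad+ cells a median of 7 (quartiles 7 and 8, range 4 to 8). All 8 were above 0 in 10 Ecad- cells (10.3%) and in 47 Ecad+ cells. At the other end, 23 Ecad- cells and no Ecad+ cell held 3 or fewer. Without low-share cells the medians were 6 in Ecad- and 7 in Ecad+ cells, and 7 Ecad- cells held 3 or fewer. The number was lower in Ecad- libraries of each set. Its medians were 6, 5 and 4 in Ecad- against 7, 8 and 7 in Ecad+ libraries of sets 1, 2 and 3. Genes at large were also fewer per cell, with medians of 8694 in Ecad- and 10338 in Ecad+ cells. A lower share of Ecad- cells held for 89.7% of genes averaging 1 TPM or more, and no per-cell count was made for other lists.

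**Figure D4:**
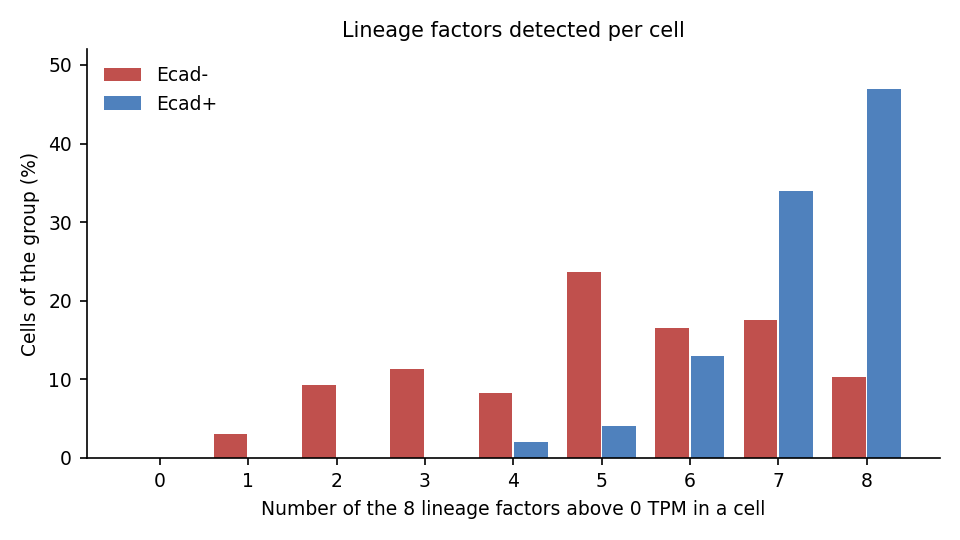
Share of cells (percent) by how many of the 8 factors were above 0 TPM, for Ecad- and Ecad+ cells. The Ecad+ cells pile up at 7 and 8, with 47 of 100 at 8, while the Ecad- cells spread over 1 to 8 with 10 of 97 at 8.

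Across cells of a group, levels of 2 factors were compared by Spearman's rho, as a description of cells that share libraries, sets and quality. The 28 pairs had a median rho of 0.24 over 97 Ecad- cells (-0.07 to 0.41, 24 above 0) and of 0.08 over 100 Ecad+ cells (-0.18 to 0.44, 20 above 0). Most values were weak. Ranking within library sets gave medians of 0.23 in Ecad- and 0.07 in Ecad+ cells. No median rho or share above 0 was computed for pairs of other genes. Whether these values, or their difference between the groups, are particular to the factors was therefore not tested.

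Hnf4a and Pdx1 had a rho of 0.41 in Ecad- and 0.44 in Ecad+ cells, the highest of the pairs over all cells. Both were above 0 in 42 of 97 Ecad- cells and neither was in 23, against 94 and 0 of 100 Ecad+ cells. Hnf4a with Hes1 was as close in Ecad- cells, with rho of 0.40, and gave 0.28 in Ecad+ cells. Hnf4a with Foxa2 gave 0.38 in Ecad- and 0.14 in Ecad+ cells, and Foxa2 with Pdx1 gave 0.34 in Ecad- and 0.01 in Ecad+ cells. In the 57 Ecad- cells left without low-share cells, Hnf4a gave 0.49 with Hes1, 0.48 with Foxa2 and 0.43 with Pdx1, so Pdx1 was no longer its closest partner. Sox9 with the other 7 factors gave between -0.07 (Pdx1) and 0.19 (Hes1) in Ecad- cells; its rho with Pdx1 was 0.31 in Ecad+ cells. Without low-share cells Sox9 gave 0.22 with Hnf4a, 0.27 with Onecut2 and -0.19 with Pdx1 in Ecad- cells.

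**Figure D5:**
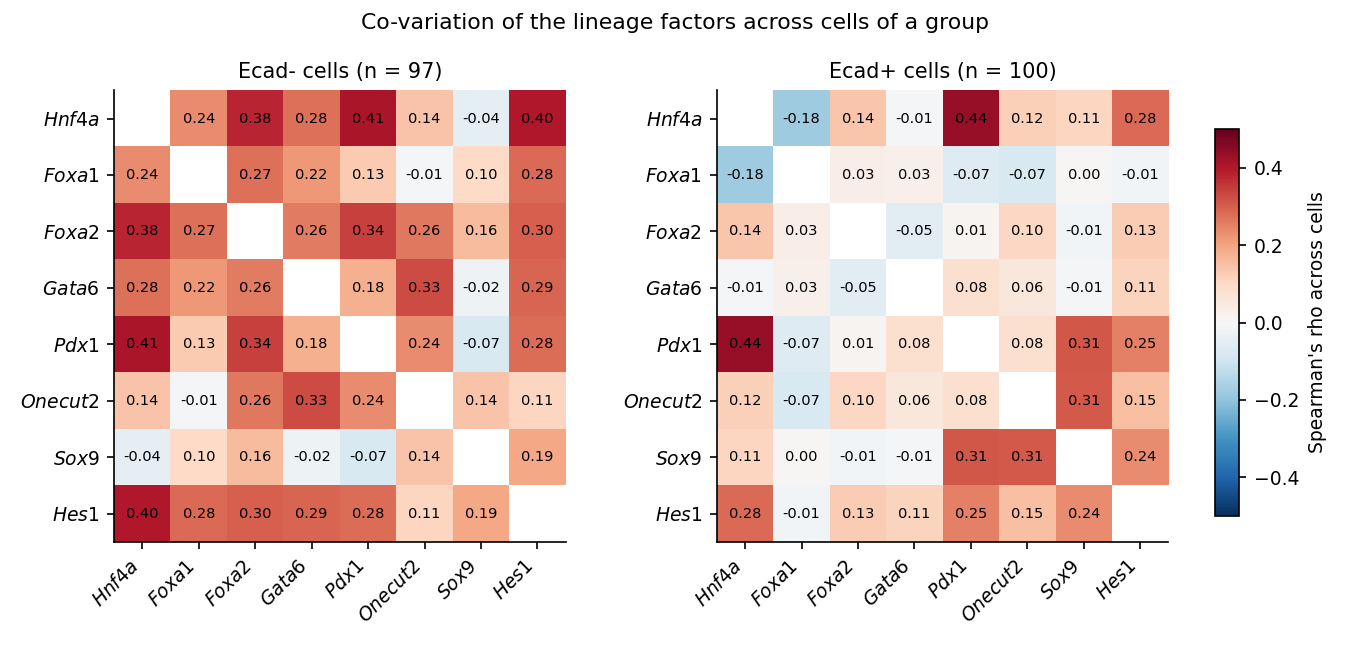
Spearman's rho between each 2 factors across 97 Ecad- cells (left) and 100 Ecad+ cells (right); colour and printed value both give rho. Hnf4a and Pdx1 form the highest pair in both panels (0.41 and 0.44), and over all Ecad- cells the Sox9 row runs between -0.07 and 0.19.

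Among Ecad- cells, the factors differed in how they followed Cdh1, the gene of the sorted protein. Spearman's rho with Cdh1 was 0.44 for Foxa2, 0.39 for both Gata6 and Onecut2, 0.36 for Pdx1 and 0.30 for Hnf4a, but -0.08 for Sox9. In Ecad+ cells the values lay between -0.17 for Hes1 and 0.20 for Sox9. Krt19, a keratin of ductal cells, followed Hnf4a with rho of 0.56 in Ecad- and 0.33 in Ecad+ cells, and Pdx1 with 0.45 in Ecad- and 0.39 in Ecad+ cells. Without low-share cells Hnf4a with Krt19 gave 0.46 in Ecad- cells. Hnf4a rho with the mitochondrial share was 0.44 in Ecad- and -0.36 in Ecad+ cells, and in the 57 Ecad- cells left without low-share cells it was 0.06.

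Of the 7222 genes ranked by the smaller of the rho values in the 2 groups, those closest to Hnf4a were Rgl1, Emp3 and Ociad2, each at 0.46. Closest to Hes1 were the immediate early gene Fos (0.49), the inhibitor of differentiation Id1 (0.46) and Csrp2 (0.40). Closest to Onecut2 were Adam10 (0.39), Sult1c2 (0.34) and Cd14 (0.33). Foxa2 had no gene above 0.29, with Ptpla, Krt23 and Pir the nearest.

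Other genes of the same programmes were read from lists. Of 30 further endodermal and epithelial lineage factors, 10 passed the 5 TPM floor, 6 of them higher and 4 lower in Ecad- cells, with a median log2 ratio of 0.17 beside 0.31 for all genes, and 4 were above that all-gene median. Gata5, a sister gene of Gata6, was at 3.53 TPM in Ecad- cells, against 8.26 TPM in Ecad+ cells (-1.03, and -0.97, -0.79 and -1.34 by set). Gata4, another endodermal GATA factor, was at 7.27 TPM in Ecad- cells, against 3.64 TPM in Ecad+ cells (0.84), but at -0.05 in set 1. Gata4 and Gata5 thus differed in sign of the overall ratio, also relative to the all-gene median.

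Ehf (0.47), an epithelial ETS factor, and Sox4 (0.39), a SOX factor of progenitors, were higher in mean in Ecad- cells. Ehf was at -0.75 in set 2, while Sox4 was above 0 in each set. Hnf4g, the paralogue of Hnf4a and below the floor, averaged 1.52 TPM in Ecad- cells, against 4.06 TPM in Ecad+ cells (log2 ratio -1.01). Klf5, a Krüppel-like factor of epithelial cells, was at 18.7 TPM in Ecad- cells, against 15.2 TPM in Ecad+ cells (0.28, or -0.03 relative to the all-gene median).

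Factors of acinar and endocrine cells were near or at 0. Of 18 listed, 8 were at 0 in every cell, among them Ptf1a of acinar cells and Neurog3, Neurod1 and Mafa of endocrine cells, and only Gata4, which stands on both lists, passed the floor.

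Of 34 Notch pathway genes besides Hes1, 9 passed the floor, 6 higher and 3 lower in Ecad- cells but 3 above the all-gene median, with a median log2 ratio of 0.08 that was 0.01 without low-share cells. Among the regulators, the Notch antagonist Numb averaged 13.3 TPM in Ecad- cells, against 7.33 TPM in Ecad+ cells (0.78), but its ratio was -0.17 without low-share cells. The ligase Itch was at 0.55 and the secretase subunits Psenen and Ncstn at 0.46 and -0.16. Rbpj, the DNA-binding partner of Notch, was close to even at 6.27 TPM in Ecad- cells, against 5.78 TPM in Ecad+ cells. The receptor Notch1 was at 0.866 TPM in Ecad- cells, against 2.82 TPM in Ecad+ cells, and the 10 highest cells held 87.9% of its sum in Ecad- and 78.4% in Ecad+ cells. The receptor Notch2 (0.43) and the ligand Jag1 (-0.31) were also under 3 TPM in both groups. Of the Notch targets, Nrarp averaged 1.61 TPM in Ecad- cells (30 cells above 0), against 2.67 TPM in Ecad+ cells (76 cells). Hey1 averaged 0.812 TPM in Ecad- cells (11 cells above 0), against 0.0606 TPM in Ecad+ cells (5 cells), and Hey2, Heyl and Hes5 were at 0 in every cell. Hes6, another member of the Hes family, averaged 32.5 TPM in Ecad- cells, against 36.0 TPM in Ecad+ cells.

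Genes that mark ductal and classical tumour epithelium were mostly lower in Ecad- cells. Of 20 ductal genes, 13 passed the floor and all 13 were lower in Ecad- cells, 6 of them at -1 or below, beside 31.2% of all genes lower and 4.14% at -1 or below at this floor. Their median log2 ratio was -0.93 and was -0.54 without low-share cells. They were led by Cldn7 (-2.31), Krt7 (162 TPM in Ecad- cells, against 650 TPM in Ecad+ cells), Krt19 (-1.63) and Car2 (-1.22). Of 32 classical tumour genes in the table, 11 passed the floor, of which 10 were lower, 8 at -1 or below, and Anxa10 (0.15) was higher though below the all-gene median, with a median of -1.52 that was -1.12 without low-share cells. Ctse, an aspartic protease, averaged 18.2 TPM in Ecad- cells, against 107 TPM in Ecad+ cells (-2.48). The microvillus protein Vil1 averaged 3.50 TPM in Ecad- cells, against 16.0 TPM in Ecad+ cells (-1.91). Slc44a4 (-1.81) and Pllp (-1.73) came next. Of 22 basal tumour genes in the table, 3 passed the floor, among them Itga3 (-1.74) and Areg (-0.67).

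The label of an epithelial tumour line was checked against markers. Of 15 epithelial markers, 11 passed the floor. All 11 were lower in Ecad- cells, 5 of them at -1 or below, beside 31.2% and 4.14% of all genes. They include Cdh1 (-1.19), the gene of the sorted protein, and they share Cldn7, Krt7 and Krt19 with the ductal list. The lower level in Ecad- cells is therefore no separate result from that of the sort and of the ductal genes. The summed level of all 15 had a median of 1931 TPM (17.5 to 12316) in Ecad- cells and 4443 TPM (904 to 12530) in Ecad+ cells. No acinar, endocrine, fibroblast or endothelial list had a gene above the floor, and Cpa1, Pnlip, Ins1, Ins2, Gcg, Col3a1, Lum and Cldn5 were at 0. The endothelial marker Vwf, below the floor, averaged 3.90 TPM in Ecad- cells, against 0.252 TPM in Ecad+ cells. Of 10 immune markers only Cd68, also a general lysosomal gene, passed. Cd68 averaged 30.0 TPM in Ecad- cells (41 cells above 0), against 6.35 TPM in Ecad+ cells (36 cells), a log2 value of 2.08 that was 1.81, 3.17 and 1.75 by set and 1.39 without low-share cells. The immune markers Ptprc, Adgre1 and Tyrobp were at 0, and the summed level of the 10 had a median of 0.463 TPM (0 to 370) in Ecad- cells and 0.174 TPM (0 to 126) in Ecad+ cells; their part in the values of the 8 factors was not tested. Since the line came from a liver metastasis and Hnf4a and Foxa2 are also hepatocyte factors, 14 hepatocyte markers were read: their summed median was 13.0 TPM (0.299 to 649) in Ecad- and 22.3 TPM (1.10 to 254) in Ecad+ cells. Fgb, Fga, Tat and Cyp3a11 were at 0 and Alb was above 0 in 1 Ecad- cell. Apob (-1.08), Cyp2e1 (0.98) and Ttr (0.40) passed the floor.

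In the same cells, all 20 of 20 G2/M genes were lower in Ecad- cells (median -1.23), beside 31.2% of all genes. All 13 stress response genes above the floor, of 15 listed, were higher (median 1.48), as most genes were, and 10 of them were at 1 or above, beside 14.2% of all genes. Their part in the values of the 8 factors was not tested.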

How the data were processed

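Single cells were captured on a Fluidigm C1 device, with SMARTer amplification and Nextera XT library preparation, per the labels' protocols. This chemistry marks no strand, so overlapping genes cannot be told apart. Per the submitters' processing notes, kallisto (no version) and FastQC 0.11.5 were used with build mm10. No source used here gives the transcript index or cell filters.

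The authors deposited log2 values for 28987 genes in 202 libraries (98 Ecad-, 104 Ecad+). Back-transformed, libraries summed to 933711 to 987134, so the deposited values were read as log2(TPM + 1). TPM keeps no depth. The authors also deposited fold changes and p-values of their own, which are left out.

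Groups came from the sample labels. The 3 library sets are name suffixes of unstated meaning. The 5 library pairs whose Pearson correlation exceeded 0.97 (0.984 to 0.994, next 0.939) were averaged as 1 cell each. Whether the libraries of a pair came from the same cell could not be tested. Within sets each library stayed separate. The library number is confounded with group, so its effect cannot be told apart from the sort.

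The ratio is log2 of mean TPM plus 1, Ecad- over Ecad+, and understates changes of low genes. Shares have exact Clopper-Pearson 95% intervals, which cover counting error only. No label names separate cultures or sorts, so each group was treated as 1 sample and no test was made. Shares of all genes stand beside the counts of factors. The 8 factors, the lists and the named-gene rule were chosen with earlier results of these data known. That rule named the 8 factors, further genes whatever their values (Rbpj, Notch1, Notch2, Jag1, Klf5, Cdh1 and Krt19 among them; some named genes are not reported here), up to 4 genes per list with the largest ratio above the floor, and 3 genes of closest rho per factor above the floor; Hnf4g, Hes6, Anxa10 Nrarp, Hey1, Vwf and markers at 0 were named after their values were seen. Coordinates are from GENCODE M21, promoter windows from RefSeq (GRCm38.p6). Python 3.11.15, numpy 2.4.6, pandas 2.3.3, scipy 1.17.1 and matplotlib 3.10.9 were used, and the ratio code was tested on simulated data.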

Additional observations from a re-analysis of the deposited data

How the results depend on the processing

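Across 15 alternatives that can move a single gene's ratio, the log2 ratio of Hnf4a (-1.62 to -0.51), Pdx1 (-1.10 to -0.21), Onecut2 (-0.86 to -0.23) and Hes1 (-1.11 to -0.16) was below 0 in each, and that of Sox9 (0.11 to 0.87) was above 0 in each. Sox9 was not above the all-gene median of the same alternative in each, however. Its ratio was 0.11 beside a median of 0.12 without low-share cells, and 0.17 beside 0.26 in cells of a middle gene number. Without both low-share and fewest-gene cells it was 0.16 beside 0.18, and in the remaining alternatives Sox9 was above the median. Foxa1 was below 0 in 6, Foxa2 in 10 and Gata6 in 5 of the 15. The cause of these differences was not tested.

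The number of factors at -1 or below, 1 in the report, was 3 with means of log2 values, 2 when centred, 2 with a pseudocount of 0.1 and 0 with one of 10. It was 2 without library set 1, 0 without set 3, 0 without low-share cells and 0 without the cells with the fewest genes. It was 2 in cells of a middle gene number, and 0 without both low-share and fewest-gene cells. The share of all genes at -1 or below was not counted under these alternatives. Their share below 0 was 65.1% with means of log2 values and 50% when centred, beside 31.2% in the report. It was 49.9% when rescaled without mitochondrial and ribosomal protein genes. The number of factors below 0 was 7 in each of these alternatives, beside 5 in the report. As both this number and the all-gene share below 0 moved with the setting, the counts cannot be read as a result about the factors. With means of log2 values the medians were -1.18 for the factors, -0.49 for the other lineage factors, -0.54 for the Notch pathway, -2.02 for ductal genes and -2.87 for classical genes, while the all-gene median was -0.28. The other lineage factors had a median of -0.055 with trimmed means, -0.14 when centred, -0.14 when rescaled without mitochondrial and ribosomal protein genes, and -0.27 in cells of a middle gene number. The Notch median was -0.22 when centred, -0.19 when rescaled, 0.46 at a floor of 50 TPM (1 gene), 0.0068 without low-share cells and 0.18 without the cells with the fewest genes. With no floor the classical median was -0.25. At 10 TPM or more, 5 factors had a lower share of Ecad- cells, but the share of all genes was not computed at that threshold. A lower share at 5 TPM or more held for 68.6% of genes averaging 1 TPM or more. At 5 TPM or more, the median number of factors per cell was 3 in Ecad- and 4 in Ecad+ cells, and at 10 TPM or more it was 2 and 3. The floor of 1 TPM and the joint omission of low-share and fewest-gene cells were chosen after seeing the data. No paired analysis was possible because no label ties a cell of one group to a cell of the other and no result comes from a test; the library sets, whose meaning is not stated and which share 5 cells, gave the within-set ratios in the report. TPM gives no depth, so levels under about 1 TPM carry an unknown counting error.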
